A study of Mus musculus with 21 samples.

Results

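Keratins 7, 8, 18 and 19 are the keratins of simple epithelium, the single cell layers that line tubules, ducts and glands. A keratin filament is built from pairs of one type I and one type II keratin. Krt8 and Krt7 encode type II keratins, Krt18 and Krt19 encode type I keratins, and Krt8 with Krt18 is the basic pair of most simple epithelia. In the kidney, Krt8 and Krt18 are known from all tubule segments, whereas Krt7 and Krt19 are known mainly from the distal nephron, collecting ducts and urothelium, and all of them are known to be raised in injured tubules. Neutrophils are not known to build keratin filaments. The 4 genes Krt7, Krt8, Krt18 and Krt19 were chosen by name, as 4 of 54123 genes with a transcript in the data. The rule itself uses no measured value, but earlier results of these data were known when the genes were chosen.

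The 21 RNA-Seq libraries came from wildtype mice, which the study's methods describe as young adult males of the C57BL/6 strain. Neutrophils (PMNs), labelled as from blood, and tubular epithelial cells (TECs) from kidney were isolated 24 hours after surgery. Surgery was ischemia-reperfusion injury (IRI), in which both renal pedicles were clamped for a time and then released, or a sham operation without clamps. It followed remote ischemic preconditioning (RIPC), in which a hind limb cuff was inflated several times, or a control procedure. PMNs comprised 2 sham control, 3 sham RIPC, 2 IRI control and 3 IRI RIPC libraries, and TECs comprised 3 sham control, 3 sham RIPC, 2 IRI control and 3 IRI RIPC libraries. The methods describe isolation of tubular cells with beads against prominin-1. The study describes 3 biological replicate libraries per group and counts animals as n in its in vivo experiments. It does not state for these libraries whether each was made from 1 animal. The p-values below measure the spread between these libraries, which may in part be technical.

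The values are estimated read counts of each gene, added up from its transcripts in both files of a library. A library held 20881334 to 51624602 reads. Levels are given as normalized CPM, read counts scaled to a common library size by the TMM method over all 21 libraries, and differences between groups are given as log2 fold changes with their standard error (SE) from edgeR. A gene was called where its p-value, adjusted over all genes tested by the Benjamini-Hochberg method in edgeR's quasi-likelihood test, was under 0.05. A count of 0 allows up to 3 reads in a library, which covers counting error only. Prom1, the gene of the protein used to isolate tubular cells, held 7.44 to 118 CPM in the TEC libraries. In PMN libraries it held 9.92 to 80.1 CPM after sham surgery and 3.10 to 23.2 CPM after IRI. It was not called between the cell types (edgeR adjusted p = 0.634 after sham surgery and 0.176 after IRI).

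Krt7, Krt8 and Krt18 lie on mouse chromosome 15 and Krt19 on chromosome 11 (GRCm38, Gencode M21). Krt8 (ENSMUSG00000049382.10, chr15:101996698-102004482, minus strand) and Krt18 (ENSMUSG00000023043.7, chr15:102028180-102032027, plus strand) are neighbours that point away from each other, 23697 bases apart. Krt7 (ENSMUSG00000023039.17, chr15:101411043-101430313, plus strand) lies 566384 bases from Krt8. Krt19 (ENSMUSG00000020911.14) spans chr11:100140810-100148665 on the minus strand. Krt8 and Krt18 have 1 annotated transcript each, so all of their reads were assigned to that transcript, and Krt19 has 3.

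The sequence before each start site is shown for Krt8 and Krt18, the neighbouring pair whose levels are set against each other below. That of Krt7, on the same chromosome, is shown as well. The stretches run 5′ to 3′ on the strand of the gene and end at the base before the annotated start of the principal transcript in Gencode or in RefSeq, whichever comes first. They were read from the RefSeq promoter table for GRCm38.p6, which held 3 of the 4 genes. Capitals mark GGGCGG (the GC box) and CACCTG (an E box), on either strand.
Krt8, chr15:102004483-102004592, minus strand: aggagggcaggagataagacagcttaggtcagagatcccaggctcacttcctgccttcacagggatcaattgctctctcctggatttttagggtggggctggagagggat
Krt18, chr15:102027966-102028179, plus strand: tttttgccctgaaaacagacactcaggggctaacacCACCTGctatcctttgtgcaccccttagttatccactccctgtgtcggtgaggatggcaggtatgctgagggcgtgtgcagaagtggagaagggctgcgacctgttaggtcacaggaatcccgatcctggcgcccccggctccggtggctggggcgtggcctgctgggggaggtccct
Krt7, chr15:101412153-101412401, plus strand: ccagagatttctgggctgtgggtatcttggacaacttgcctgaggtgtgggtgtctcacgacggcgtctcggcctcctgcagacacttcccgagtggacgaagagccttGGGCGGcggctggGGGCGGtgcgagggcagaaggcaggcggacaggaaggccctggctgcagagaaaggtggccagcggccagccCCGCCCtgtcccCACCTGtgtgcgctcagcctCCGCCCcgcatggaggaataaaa
In the 250 bases before the RefSeq start, GGGCGG was found 4 times before Krt7 and not before Krt8 or Krt18, while 32.7% of 32851 mouse promoters of that length held it. CACCTG was found once before each of the 3 genes, that of Krt8 lying outside the stretch shown, and 17.2% of promoters held it. TGANTCA, the AP-1 motif, was found before none of the 3 and in 6.75% of promoters. These matches are letters in a window and were not tested against the expression values.

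Krt8 was the leading keratin of TECs in every library. Compared as TPM, which scales reads by transcript length and by the total of the library, Krt8 stood at 82.3 to 279 TPM in the 11 TEC libraries, with a median of 127 TPM. Krt18 reached 0 to 37.9 TPM there (median 8.89), Krt7 0.299 to 18.9 TPM (median 2.28), and Krt19 0 to 4.07 TPM (median 0). Krt8 was above each of the other 3 in 11 of 11 TEC libraries and made up 79.8% to 97.3% of the summed TPM of the 4 genes. Krt18 was above Krt7 in 8 of the 11, so the order of these neighbours was not the same in all libraries. Krt7 TPM can rest on few reads of short transcripts. In replicate 1 of the IRI control group, 53.3 reads assigned to a transcript of 351 bases made up 8.39 of its 14.4 TPM.

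In the PMN libraries the summed TPM of the 4 keratins was 1.19 to 81.5, against 84.6 to 322 in TECs, and no keratin led throughout. Krt8 made up 2.94% to 65.8% of the sum and Krt7 0.486% to 83.8%. Krt7 was above Krt8 in 4 of the 10 PMN libraries, per length, and below it in 6. Krt19 supplied 61.5% of the sum in replicate 1 of the sham RIPC group, where the sum itself was 1.19 TPM, and 0% in 6 of the 10 libraries.

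**Figure D1:**
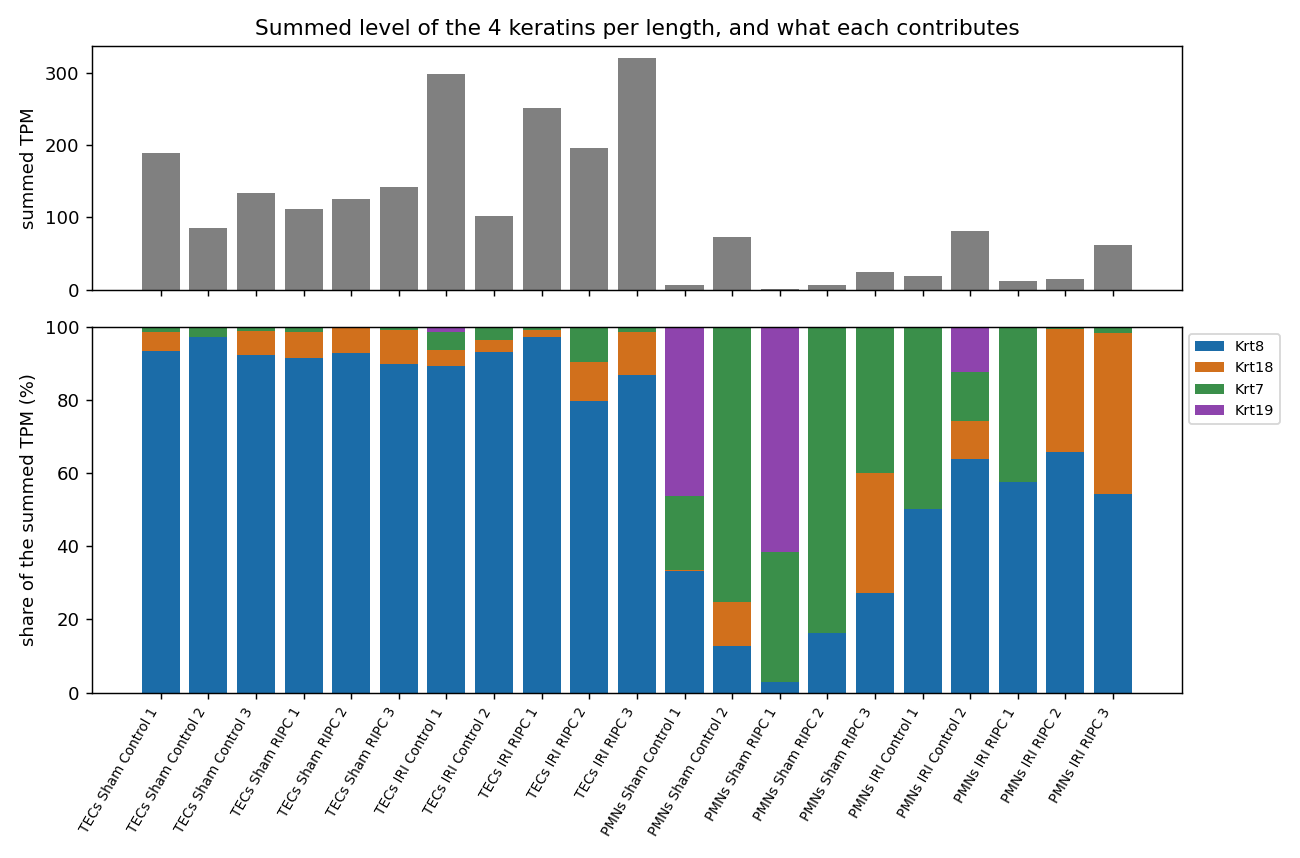
Summed TPM of Krt7, Krt8, Krt18 and Krt19 in each library (upper bars) and the percent of that sum from each gene (lower bars), for 11 TEC and 10 PMN libraries. Krt8 makes up 79.8% to 97.3% of the sum in every TEC library, whereas the PMN bars change from library to library and rest on sums of 1.19 to 81.5 TPM.

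Although Krt8 and Krt18 proteins are known as partners, their transcripts were not measured at equal levels in TECs. Krt18 stood at 2.10% to 13.6% of the Krt8 TPM in 10 TEC libraries and at 0% in replicate 2 of the sham control group, with a median of 7.19% over the 11. The sham libraries had a median of 7.31% and the IRI libraries a median of 4.97%, within overlapping ranges of 0% to 10.4% and 2.10% to 13.6%. Over the 10 PMN libraries the ratio had a median of 8.47%, near that of TECs, but a wider range. It was 0% in 4 of them, 0.984% in another, and 16.0%, 51.3%, 81.4%, 95.2% and 120% in the 5 libraries with over 3 Krt18 reads, which had Krt8 levels of 6.71 to 52.2 TPM. When TPM was rebuilt from the added reads, the TEC median was again 7.19%. Amplification of full-length cDNA can weigh transcripts differently, and its part in the ratio was not tested.

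Krt8 was higher in TECs than in PMNs, by 33.8-fold after sham surgery. After sham surgery the TEC libraries held 638, 216 and 334 CPM of Krt8 in the control group and 290, 347 and 344 CPM with RIPC. The PMN libraries held 5.00 and 25.8 CPM in the control group and 0.0991, 2.87 and 19.1 CPM with RIPC. All 6 TEC libraries stood above all 5 PMN libraries, the lowest of the former 8.38-fold above the highest of the latter, as 3.75% of all genes tested lay entirely higher in TECs. The log2 fold change was 5.08 (SE 1.01, edgeR adjusted p = 0.00665). Krt8 was the only one of the 4 keratins called in this comparison, in which 2.62% of 31769 genes were called and 1.13% were called as higher in TECs. Leaving out any 1 library kept the call, with log2 fold changes of 4.79 to 6.23, the highest without replicate 3 of the sham RIPC group of PMNs and 5.95 without replicate 2 of their sham control group.

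After IRI the distance between the cell types was 10.6-fold for Krt8 and did not pass the threshold. The TEC libraries held 855 and 369 CPM in the control group and 650, 403 and 1118 CPM with RIPC, and the PMN libraries 25.6 and 144 CPM in the control group and 19.2, 28.7 and 91.8 CPM with RIPC. The groups again did not overlap, with the lowest TEC library 2.57-fold above the highest PMN library, where 2.94% of all genes tested lay entirely higher in TECs. The log2 fold change was 3.41 (SE 0.93, edgeR adjusted p = 0.0532), and none of the 4 keratins was called, against 2.67% of all genes. At an unadjusted p under 0.05 the count was 1, and DESeq2's Wald test called 1 and 11.7% of all genes, Krt8 being the keratin in both cases. The adjusted p of Krt8 fell under the threshold in 8 of 10 other settings and in 3 of 10 fits without 1 library, with log2 fold changes of 2.97 to 4.28 over the latter, so the call depends on such choices. The log2 fold change was 4.28 without replicate 2 of the IRI control group of PMNs.

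**Figure D2:**
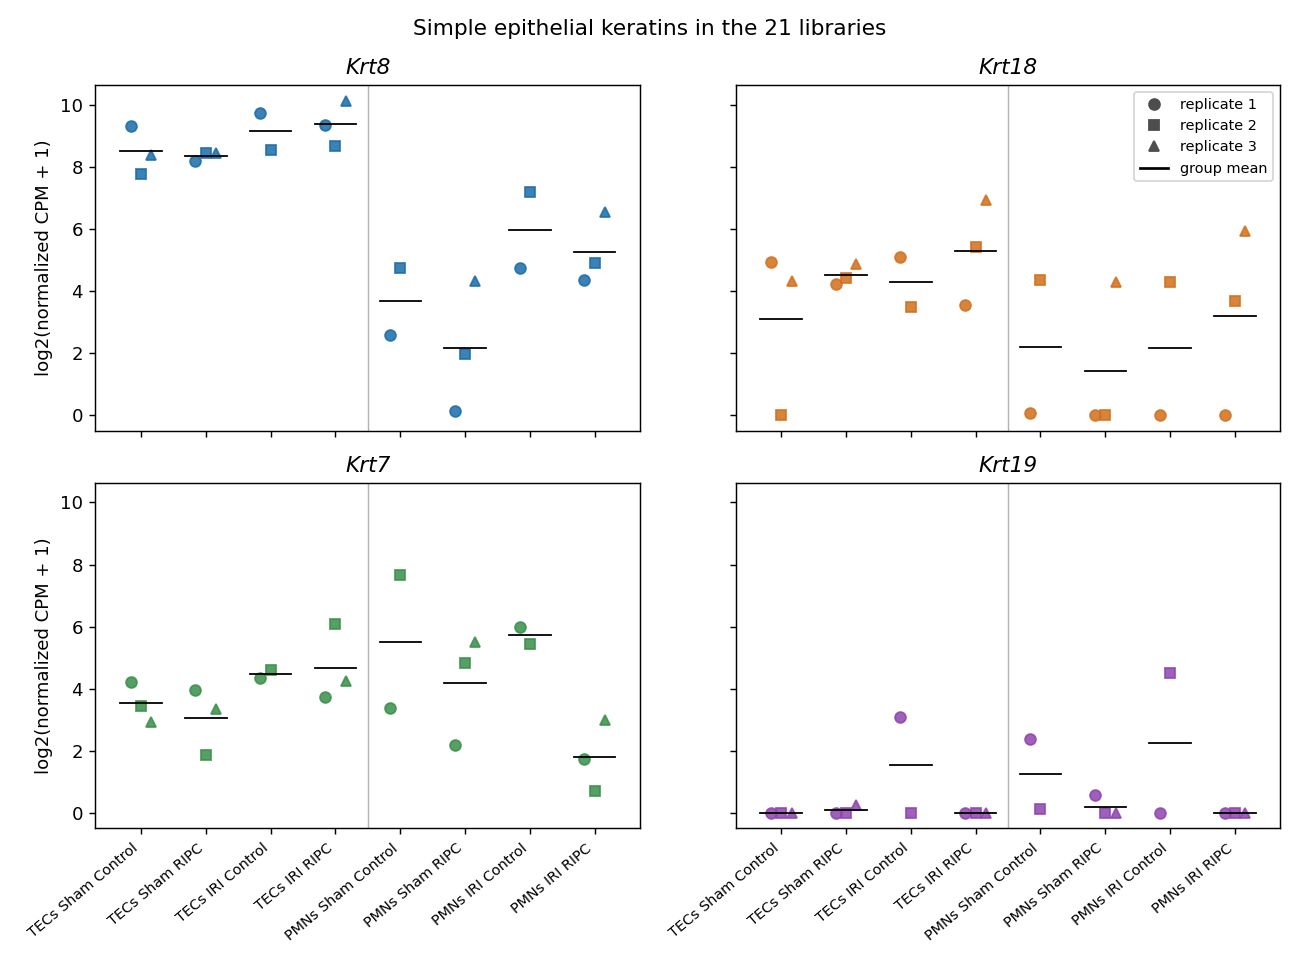
Level of each keratin in each library, as log2 of normalized CPM plus 1, by group; symbols mark the replicate number and bars the group mean of the log values. Krt8 lies higher in all TEC libraries than in any PMN library, Krt18 and Krt7 overlap between the cell types, and Krt19 is at or near 0 in most libraries.

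The other 3 keratins did not separate the cell types. Krt18 held 29.5, 0 and 19.1 CPM in the sham control group of TECs and 17.5, 20.4 and 28.3 CPM in their sham RIPC group. In PMNs after sham surgery it held 0.0406 and 19.3 CPM without RIPC and 0, 0 and 18.3 CPM with it. PMN libraries were thus either close to those of TECs or at 1 read or fewer, and the log2 fold change of TECs over PMNs was 1.30 (SE 1.88, adjusted p = 0.855) after sham surgery and 1.26 (SE 1.95, adjusted p = 1.00) after IRI. Replicate 2 of the sham control group of TECs was the deepest library of the series and held 0 reads of Krt18, which allows up to 0.0748 CPM, beside 8677 reads of Krt8. It also had the fewest genes with over 3 reads, 12846 against 15212 to 23846 in the other libraries. The limit covers counting error only, and the cause of the 0 was not tested.

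Krt7 had a fold change below 0 after sham surgery, which was not called. It held 17.5, 9.75 and 6.58 CPM in the TEC control group and 14.4, 2.65 and 9.15 CPM in the TEC RIPC group, against 9.39 and 199.9 CPM in the PMN control group and 3.52, 27.7 and 43.9 CPM in the PMN RIPC group. The ranges overlapped, at 2.65 to 17.5 CPM in TECs and 3.52 to 199.9 CPM in PMNs. The log2 fold change of TECs over PMNs was -2.37 (SE 0.89, adjusted p = 0.185), and it was -0.57 without replicate 2 of the PMN control group, the library with 199.9 CPM. DESeq2's Wald test called Krt7 lower in TECs (log2 fold change -2.35, adjusted p = 0.0226) and also called Krt19, 3 keratins in all, where it called 15% of all genes. With a filter of 10 counts in every library, which removed Krt8, edgeR called Krt7 (adjusted p = 0.0452) and 18.7% of 4319 genes. After IRI the log2 fold change was 1.00 (SE 0.93, adjusted p = 0.766).

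Krt7 differs from Krt8 and Krt18 in how its reads were assigned. Of its 5 annotated transcripts, the protein-coding one of 4094 bases took 57.1% of the pooled Krt7 reads in TECs and 39.8% in PMNs. The one of 3563 bases, annotated as a retained intron, took 33.3% and 52.7%. Pooled shares weigh libraries by their reads, and PMN sham control replicate 2 held 4174 reads of Krt7. Over single libraries the medians were 49.4% in TECs and 51.5% in PMNs for the former transcript. For the latter they were 28.2% and 37.7%. The share of the latter ran from 0% to 96.4% between PMN libraries and from 0% to 63.5% between TEC libraries. The assignment is an estimate from reads of 50 bases, and reads from unspliced RNA cannot be told apart from a retained intron.

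Krt19 was all but absent from TECs. It had 188 reads (7.49 CPM) in replicate 1 of the IRI control group, 4 reads (0.177 CPM) in replicate 3 of the sham RIPC group and 0 reads in the other 9 TEC libraries, so it was not tested within TECs. In PMNs it had 550 reads (21.5 CPM) in replicate 2 of the IRI control group, 102 reads (4.14 CPM) in replicate 1 of the sham control group, 10 and 2 reads in a sham RIPC and a sham control library, and 0 in the other 6. No group had more than 1 library with over 3 reads of Krt19. After IRI, the mean of the PMN control group was at least 85.3-fold above the PMN RIPC group, whose 3 libraries were all at 0, taking 3 reads in each of them as the limit. That mean rests on the single library with 550 reads. edgeR did not call it (adjusted p = 0.920) and DESeq2's Wald test did (adjusted p = 8.15e-07).

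PMN libraries, although labelled as blood neutrophils, also held marker RNA of other cell types. All 10 neutrophil markers listed (S100a8, S100a9 and others) were present in PMNs, at 6165 to 35399 CPM in sum, against 1.72 to 109 CPM in TECs. All 12 proximal tubule markers had over 3 reads in a PMN library, and their sum was 1843 to 15339 CPM in PMNs after sham surgery and 763 to 1500 CPM after IRI. In TECs that sum was 21303 to 40540 CPM after sham surgery and 4411 to 15074 CPM after IRI. The 8 macrophage markers summed to 1875 to 18630 CPM in PMNs. The 8 markers of the thick ascending limb and distal tubule summed to 38.9 to 6700 CPM in PMNs, the highest being replicate 2 of the sham control group, which was also highest in Krt7. The 10 collecting duct markers summed to 23.2 to 334 CPM in PMNs and 4.85 to 139 CPM in TECs, and Foxi1 was at 0 in PMNs after sham surgery and in TECs after IRI. The 6 urothelium markers summed to 0 to 40.5 CPM in PMNs and 0 to 9.05 CPM in TECs, and Upk2 was at 0 in every TEC library. The part of these cells in the keratin values was not tested, and in bulk RNA a change in the share of cells of a type and a change in RNA per cell cannot be told apart.

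Among the PMN libraries after sham surgery, replicate 2 of the control group had the highest sum of proximal tubule markers, 15339 CPM, and also the highest Krt8 and Krt7. Replicate 1 of the sham RIPC group held 8171 CPM of these markers and 0.0991 CPM of Krt8. That Krt8 value is 2 reads, below the limit of 3 reads, which is 0.149 CPM in that library. Replicate 2 of the IRI control group held 867 CPM of the markers and 144 CPM of Krt8, the highest Krt8 level in PMNs. These libraries are the extremes of Krt8 or of the markers, and the part of tubule RNA in the keratin values was not tested.

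**Figure D3:**
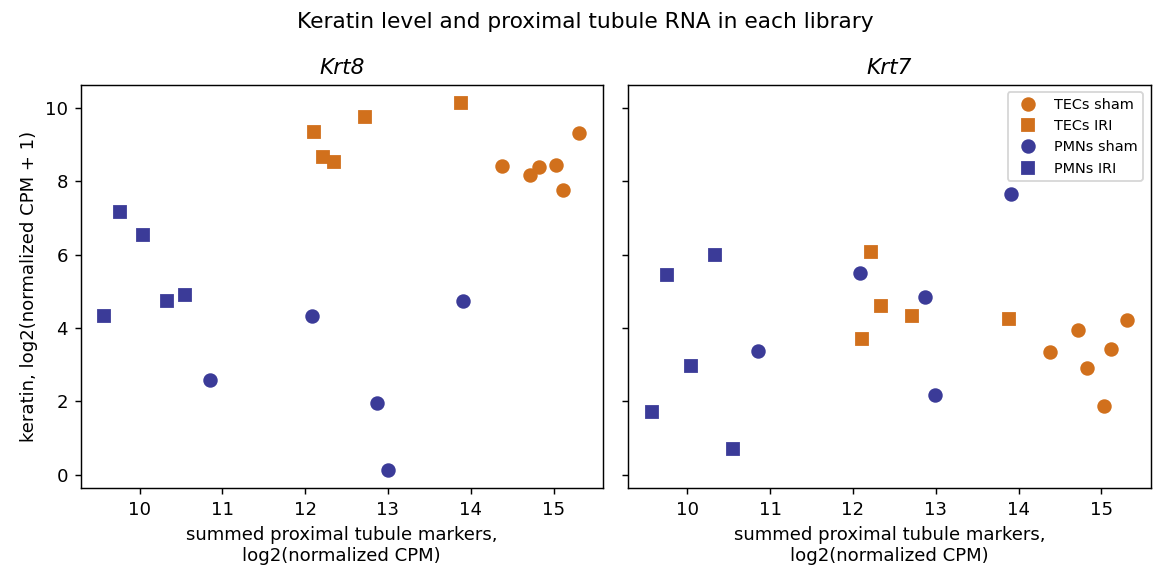
Krt8 (left) and Krt7 (right) in each library against the summed level of 12 proximal tubule markers, both on log2 scales of normalized CPM (plus 1 for the keratins). PMNs after IRI lie at 763 to 1500 CPM of the markers with Krt8 of 19.2 to 144 CPM, and PMNs after sham surgery at 1843 to 15339 CPM with Krt8 of 0.0991 to 25.8 CPM. The lowest of these Krt8 values rests on 2 reads.

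Within TECs, IRI was compared with sham surgery, with equal weight for the RIPC and control groups, to ask whether the keratins changed with injury. All 3 tested keratins had fold changes above 0 and none was called, where 1.4% of 25917 genes were called. Krt8 was 1.80-fold higher after IRI, a log2 fold change of 0.85 (SE 0.37, unadjusted p = 0.0382, edgeR adjusted p = 0.306). The 6 sham libraries held 216 to 638 CPM and the 5 IRI libraries 369 to 1118 CPM, with medians of 339 and 650, and 3 of the 5 IRI libraries stood above all sham libraries. The groups overlapped through replicate 1 of the sham control group, at 638 CPM. Krt8 was the 1 keratin with an unadjusted p under 0.05, and DESeq2's Wald test called 0. The log2 fold change was 0.49 without replicate 1 of the IRI control group.

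Krt7 and Krt18 differed less clearly between IRI and sham TECs. Krt7 held 19.2 and 23.4 CPM in the IRI control group and 12.1, 66.4 and 18.0 CPM with RIPC, and 4 of these 5 libraries were above the 6 sham libraries. Its log2 fold change was 1.39 (SE 0.75, adjusted p = 0.408). Krt18 held 33.3 and 10.1 CPM in the IRI control group and 10.7, 41.2 and 122 CPM with RIPC, so that 2 of its IRI libraries lay within the sham range of 0 to 29.5 CPM and 3 above it. Its log2 fold change was 0.88 (SE 1.06, adjusted p = 0.774). The median log2 fold change of all genes in this comparison was 0.15, so each value counts from there.

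The surgery comparison was also made within each procedure. Without RIPC, the log2 fold change of Krt8 was 0.58 (SE 0.55), of Krt7 0.87 (SE 1.10) and of Krt18 0.39 (SE 1.57), and none was called at an edgeR adjusted p of 0.761 to 1.00, where 0.00386% of genes were called. With RIPC, the values were 1.12 (SE 0.51) for Krt8, 1.91 (SE 1.03) for Krt7 and 1.37 (SE 1.44) for Krt18, at adjusted p-values of 0.520 to 0.854, where 0.0965% were called. The 3 sham RIPC libraries were close together in Krt8, at 290, 344 and 347 CPM, and all 3 IRI RIPC libraries were above them, as 7.98% of all genes were in that comparison. At an unadjusted p under 0.05 the count was 0 without RIPC and 1 with it (Krt8), DESeq2's Wald test called 0 in both, and DESeq2 with apeglm called Krt8 with RIPC at an s value of 0.00852, where it called 4.39% of all genes. The interaction of RIPC and surgery was 0.54 (SE 0.75) for Krt8, 1.04 (SE 1.51) for Krt7 and 0.98 (SE 2.14) for Krt18, all at an adjusted p of 1.00, so the surgery effect was not shown to differ between the procedures.

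RIPC itself was compared with control to ask whether preconditioning changed the keratins of TECs. After sham surgery Krt8 stood at 396 ± 218 CPM (SD, n = 3) in control and 327 ± 32.2 CPM (SD, n = 3) in RIPC libraries, a log2 fold change of -0.29 (SE 0.50). Krt7 had a log2 fold change of -0.40 (SE 1.00) and Krt18 of 0.45 (SE 1.42). After IRI, Krt8 stood at 612 ± 344 CPM (SD, n = 2) and 724 ± 363 CPM (SD, n = 3), a log2 fold change of 0.25 (SE 0.56). Krt7 and Krt18 had values of 0.64 (SE 1.13) and 1.44 (SE 1.66). All of these log2 fold changes were smaller in size than their SE, with edgeR adjusted p-values of 0.984 to 1.00. The number of keratins called was 0 in both comparisons and 0 at an unadjusted p under 0.05, DESeq2 called 0 by the Wald test and with apeglm, and 0% and 0.00386% of all genes were called. The median log2 fold change of all genes was 0.21 after sham surgery and 0.15 after IRI.

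**Figure D4:**
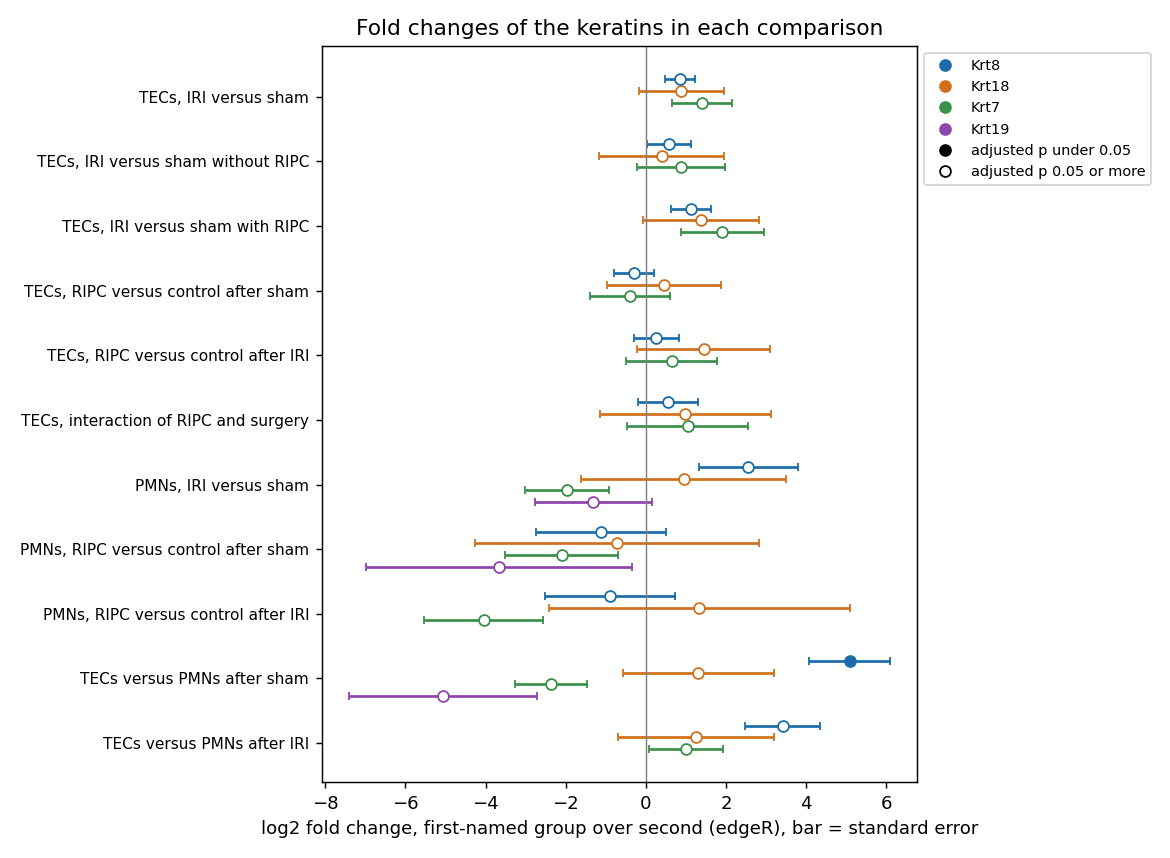
Log2 fold change (points) and standard error (bars) of each keratin in 11 comparisons, from edgeR; filled points have an adjusted p under 0.05. The single filled point is Krt8 in TECs against PMNs after sham surgery, at 5.08. Krt19 was not tested within TECs. Its values for RIPC against control PMNs after IRI and for TECs against PMNs after IRI are left out. The Krt19 points shown include comparisons in which a group was at 0.

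Within PMNs, no keratin was called between IRI and sham surgery, and the fold changes had both signs. Krt8 had a log2 fold change of 2.55 (SE 1.24, adjusted p = 0.415), with 0.0991 to 25.8 CPM in the 5 sham libraries and 19.2 to 144 CPM in the 5 IRI libraries. Of the IRI libraries, 3 stood above all sham libraries. Krt7 had a value of -1.97 (SE 1.04, adjusted p = 0.446), Krt19 of -1.31 (SE 1.45, adjusted p = 0.762) and Krt18 of 0.94 (SE 2.56, adjusted p = 0.969). The Krt19 value includes the IRI RIPC group, with 3 libraries at 0, and its size and sign depend on how these were fitted. Mean Krt19 had the opposite order, at 0.947 CPM in sham and 4.31 CPM in IRI libraries, the latter through 1 library with 550 reads. edgeR called 0 of the 4, where 0.416% of 25002 genes were called, and the count was 0 at an unadjusted p under 0.05. DESeq2's Wald test called 1, Krt19 (adjusted p = 0.0399), with the same group at 0, and 7.82% of all genes. The proximal tubule markers and the macrophage markers, given above, had median log2 fold changes of -2.49 and -1.79 in the same libraries. edgeR called 0 genes of either list, and 10 of the 12 and 5 of the 8 had an unadjusted p under 0.05.

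In PMNs after IRI, Krt7 stood lower in every RIPC library than in either control library, and was not called. The control libraries held 63.1 and 42.4 CPM and the RIPC libraries 2.28, 0.623 and 6.89 CPM. These groups did not overlap, as was so in the same direction for 9.54% of all genes tested. The log2 fold change was -4.05 (SE 1.49, unadjusted p = 0.0235), and it was not called over all genes (edgeR adjusted p = 0.920). Krt8 and Krt18 had values of -0.90 (SE 1.62) and 1.33 (SE 3.74). Called by edgeR were 0 of the 4 keratins and 0% of all genes, with 2 keratins (Krt7 and Krt19) at an unadjusted p under 0.05, and 1 keratin (Krt19) and 1.72% of all genes were called by DESeq2's Wald test and 0 keratins with apeglm. After sham surgery the values of RIPC against control were -1.12 (SE 1.62) for Krt8, -2.10 (SE 1.41) for Krt7, -0.72 (SE 3.54) for Krt18 and -3.67 (SE 3.33) for Krt19, with 0 called by edgeR, by either DESeq2 test and at an unadjusted p under 0.05, and 0.004% of all genes called. Without replicate 2 of the sham control group, the value of Krt7 there was 1.41.

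Among 15 other keratin genes, Krt20 rose in TECs with IRI and was the 1 gene called of the 9 that could be tested there. Of the 9, 3 had an unadjusted p under 0.05, and 1.4% of all genes were called. Krt20 encodes a type I keratin known from intestinal epithelium and urothelium. It held 0, 0 and 0.354 CPM in the sham RIPC group and 15.9, 0 and 1.35 CPM in the sham control group. After IRI it held 977 and 951 CPM in the control group and 1362, 382 and 1458 CPM with RIPC. The lowest IRI library stood 24.0-fold above the highest sham library, as 1.59% of all genes had every IRI library above every sham library. Its log2 fold change was 10.24 (SE 1.44, edgeR adjusted p = 0.00466), and the median of the 9 tested keratins was 4.73 against 0.15 for all genes. Per length, Krt20 stood at 123 to 418 TPM after IRI, in the range of Krt8 (95.3 to 279 TPM) and above Krt18 (3.32 to 37.9 TPM). Krt10, Krt12 and Krt80 were not called, at log2 fold changes of 0.52 (SE 1.01), 7.83 (SE 2.15) and 1.06 (SE 1.25). In PMNs, Krt20 held up to 4.01 CPM after sham surgery and 0.489 to 104 CPM after IRI and was not called (adjusted p = 0.450).

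**Figure D5:**
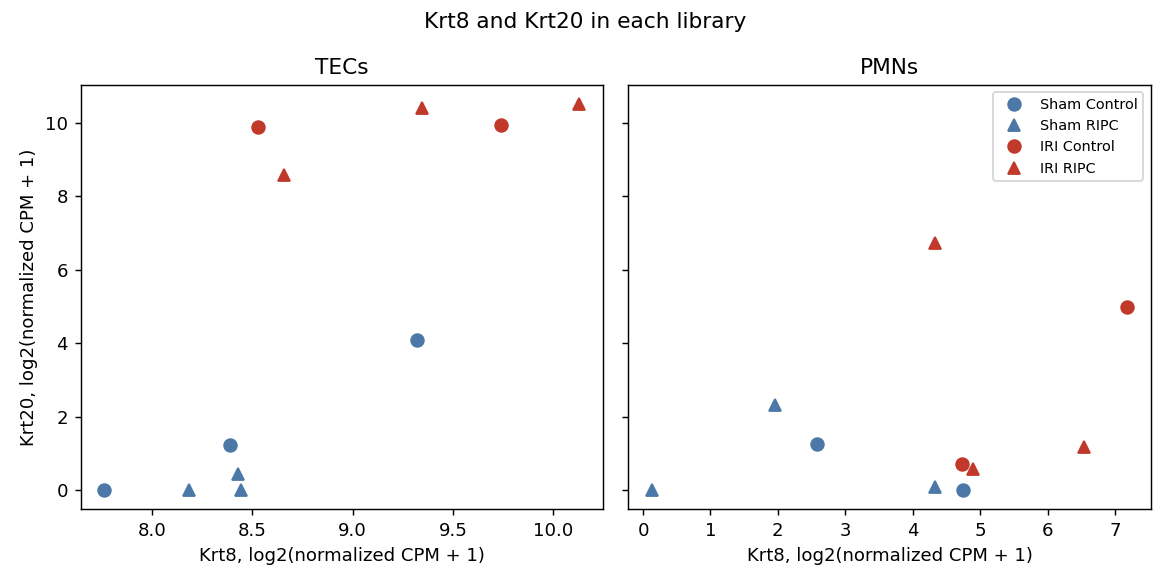
Krt20 against Krt8 in each library, both as log2 of normalized CPM plus 1, in TECs (left) and PMNs (right, with another range on the horizontal axis); colour marks surgery and shape RIPC or control. In TECs the 5 IRI libraries lie at 382 to 1458 CPM of Krt20 and the 6 sham libraries at or below 15.9 CPM, while their Krt8 levels overlap.

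Of 9 other intermediate filament genes, 7 were tested between IRI and sham TECs and 1 was called, where edgeR called 1.4% of all genes. Vim (vimentin, the filament protein of mesenchymal and injured epithelial cells) rose from 0 to 5.69 CPM in the sham libraries to 16.5 to 57.1 CPM after IRI, a log2 fold change of 8.14 (SE 1.16, adjusted p = 0.00718). The lamin gene Lmna had a value of 1.51 (SE 0.47, adjusted p = 0.153), and the median of the 7 was 2.06. In PMNs Vim was far higher than in TECs after sham surgery (log2 fold change of TECs over PMNs -10.18) and after IRI, and Lmnb1 was called lower in TECs after IRI. Of the 9 genes, 1 was called after sham surgery and 2 after IRI, in each case as lower in TECs. The shares of all genes called were 2.62% and 2.67%.

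Genes that anchor keratins to cell contacts were listed as well. Between IRI and sham TECs edgeR called 0 of 15 desmosome and keratin linker genes, where it called 1.4% of all genes, a share at which 0 calls say nothing particular about the list. Of the 15, 2 had an unadjusted p under 0.05, and the median log2 fold change was 0.33, with 9 values above 0 and 6 below. Perp, a desmosome component, had 0.33 (SE 0.54), Jup (plakoglobin) -0.28 (SE 0.49), Pkp4 -1.61 (SE 0.51, adjusted p = 0.158) and Pkp2 0.03 (SE 0.77). Of 13 tested genes of epithelial adhesion and tight junctions edgeR called 0 and 3 had an unadjusted p under 0.05 (median 0.64), with Cdh1 (E-cadherin) at 0.84 (SE 0.95) and the kidney cadherin Cdh16 at -1.38 (SE 0.39, adjusted p = 0.109). Cdh16 was called higher in TECs than in PMNs after IRI (adjusted p = 0.0114), the 1 call in that list. The desmosome list had 0 in either comparison of the cell types, with 3 genes at an unadjusted p under 0.05 after sham surgery and 2 after IRI. edgeR called 2.62% and 2.67% of all genes in these 2 comparisons.

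Other listed genes of TECs did change with IRI in the libraries in which no keratin of simple epithelium was called. Of all genes tested, edgeR called 1.4% there. Of 12 transcription factors of epithelial and injured tubular cells, Sox9 (log2 fold change 6.23, SE 1.26, adjusted p = 0.0282) and Fosl1 rose. The median of the 12 was 0.42, and 4 had an unadjusted p under 0.05. Fosl1 had 0 reads in all 6 sham libraries and 21.9 to 621 CPM after IRI, at least 1658-fold higher on the mean, taking 3 reads per sham library as the limit. Of 11 tested tubular injury genes, Anxa2 was called (4.83, SE 0.96, adjusted p = 0.0254), with a median of 2.48 and 8 at an unadjusted p under 0.05. Havcr1, which encodes the injury marker KIM-1, had 7.23 (SE 1.71, adjusted p = 0.0535) and was not called. Of 12 proximal tubule markers, 8 were called lower, among them Slc5a12 (-6.91, SE 0.76), with a median of -2.27 and 11 at an unadjusted p under 0.05. edgeR called 0 of the 8 markers of the thick ascending limb and distal tubule (median -1.61, 4 at an unadjusted p under 0.05) and 0 of the 10 collecting duct markers (median -3.03, 2 at an unadjusted p under 0.05).

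The genes most like each keratin across the TEC libraries were found by Pearson's correlation of log2(CPM + 1) over 11 libraries, among 8827 genes with a mean of at least 10 CPM. These are descriptions, since the libraries share the sham and IRI groups. For Krt8 they were Ier3 (r = 0.937), Casp8 (0.932), Igf2bp2 (0.929), Golt1b (0.919) and Bcar1 (0.917). For Krt18 they were Pou3f2 (0.946), Gm21847, Vmn1r-ps15, Gm11373 and Gimap8 (0.927). For Krt7 they were Ssr2 (0.902), Fech, Mon1a, Mrpl33 and Ppp2cb (0.853), and for Krt19, which was at 0 in 9 of the 11 libraries, Cyth2 (0.829), Cfap298, Arl2bp, Hmgn1 and Rala (0.782). No member was among the 5 genes nearest to another. Krt8 and Krt18 correlated at 0.687, Krt8 and Krt7 at 0.292, and Krt18 and Krt7 at 0.267.

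The reads of Krt8 could in part fit other genes. Of 1909 stretches of 50 bases in its transcript, 29.7% also occur in another gene, mostly in the pseudogene Krt8-ps on the same strand. Krt8-ps was assigned at most 3.36 reads in any library, and the lincRNA gene Gm36026 on the opposite strand, which shares 53 stretches, at most 33.4 reads, or 0.310% of the Krt8 reads of a TEC library. Krt18, Krt7 and Krt19 shared 0.720%, 0.916% and 0% of their stretches, and none was shared between the 4 keratins. The antisense gene Gm671 at Krt7 was assigned at most 10.0 reads. The sources used here do not say whether the counting used strand, and without it reads of a gene and its opposite-strand partner cannot be told apart.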

How the data were processed

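RNA-Seq was performed by the authors on sorted PMNs and TECs, with reverse transcription from the poly(A) tail, PCR amplification of full-length cDNA and single-end reads of 50 bases. Per the labels, reads were trimmed with Trim Galore 0.6.4 and quantified with Salmon 1.0.0, for which the study names Gencode vM23. The authors deposited, per transcript, estimated counts without normalization, TPM and effective lengths, in 2 files per library of about equal size. The difference between the 2 files is not given in the sources used here.

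The estimated counts of all transcripts of a gene in both files were added, and the sum was rounded. Of 140748 transcripts, 884 had no match in Gencode M21 and held 0.139% to 0.255% of a library's reads. Genes on X, Y and mitochondrial DNA took no part in the tests. edgeR 4.0.16 (R 4.3.3) was used with TMM, filterByExpr and 1 mean per group, fitted to TECs, to PMNs or to all libraries. The common biological coefficient of variation was 1.54, 1.65 and 1.67. Deposited TPM values were averaged over both files. DESeq2 1.42.0, apeglm 1.24.0 and the other alternatives are given in the closing section. Values were printed for the 4 keratins and, from each other list, for at most 4 genes, those called between IRI and sham TECs by adjusted p, filled up by mean CPM in TECs; calls of other list genes and Lmnb1 are named by their count. The members and lists were chosen with earlier results of these data known.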

Additional observations from a re-analysis of the deposited data

Results flagged for a closer look

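Each keratin was examined for a library that stood apart in the TECs after sham surgery, the TECs after IRI, the PMNs after sham surgery and the PMNs after IRI. In 8 of these 16 sets the gap of 1 library to its nearest neighbour, as a share of the whole range, was above Dixon's critical value, where chance flags about 1 in 20 sets of normally spread values. Krt7 was flagged in replicate 2 of the IRI RIPC group of TECs, at 66.4 CPM with the next library at 23.4 CPM. Krt7 was flagged in PMN sham control replicate 2, at 199.9 CPM with the next at 43.9 CPM. Krt8 was flagged in TEC sham control replicate 1, at 638 CPM with the next at 347 CPM. Krt18 was flagged in replicate 3 of the IRI RIPC group of TECs, at 122 CPM with the next at 41.2 CPM. Krt19 was flagged in every set, each time because 1 library held it and the others were at or near 0. These were replicate 3 of the sham RIPC group of TECs at 0.177 CPM, replicate 1 of the IRI control group of TECs at 7.49 CPM, PMN sham control replicate 1 at 4.14 CPM and replicate 2 of the IRI control group of PMNs at 21.5 CPM. The causes were not tested.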

How the results depend on the processing

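Each library holds enough reads for Krt8 in TECs, with at least 7631 reads, whereas Krt19 and in PMNs Krt18 rest on a few libraries. Of 674 fits of a keratin's fold change under another setting, 630 kept the direction and the side of the threshold. The count of keratins called in TECs against PMNs after sham surgery was 1 in every setting but DESeq2's Wald test, where it was 3. After IRI it changed from 0 to 1 without a filter on low counts, with either file alone, with the length offset, with the compared groups alone, with the replicate block, with DESeq2's Wald test and without both PMN control libraries of replicate 2, a choice made after seeing the data, and it was 0 to 1 when 1 library was left out. It changed from 0 to 1 with apeglm in TECs with RIPC (IRI against sham surgery), and with the Wald test in PMNs for IRI against sham surgery and for RIPC against control after IRI. Fits with 1 library in an arm assume that it varies like the other groups.

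Reversed fold changes, none of them called, were -0.34 for Krt7 in TECs with RIPC after IRI under the length offset, and in PMNs -0.52 for Krt18 with IRI without both control libraries of replicate 2, where Krt19 in TECs against PMNs after IRI was 4.77. When 1 library was left out, the lowest and highest log2 fold changes of results that turned were, for IRI against sham TECs without RIPC, -0.69 to 1.19 (Krt18) and -0.13 to 1.06 (Krt8). For RIPC against control TECs they were -0.96 to 0.031 (Krt7), -0.13 to 1.23 (Krt18) and -0.57 to 0.17 (Krt8) after sham surgery, and -0.52 to 1.05 (Krt7) and -0.20 to 0.96 (Krt8) after IRI. For the interaction they were -0.12 to 1.60 (Krt7) and -0.089 to 2.06 (Krt18). In PMNs they were -6.75 to 1.16 (Krt19) and -4.37 to 6.00 (Krt18) for IRI, -8.64 to 0.68 (Krt19), -3.07 to 1.41 (Krt7), -10.82 to 7.04 (Krt18) and -3.37 to 0.55 (Krt8) for RIPC after sham surgery, and -0.67 to 12.06 (Krt18) and -1.83 to 0.84 (Krt8) for RIPC after IRI. For Krt19 in TECs against PMNs after IRI they were -5.50 to 4.76. The causes were not tested.

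With the replicate number as a block, the count after IRI in TECs against PMNs was 1, Krt19 with IRI in PMNs was 0.84 and Krt18 with RIPC after IRI in PMNs was -1.14, and it changed no other call. Deviations from the group means of same-numbered libraries correlated at a median of -0.012 over 15 pairs in TECs and 0.0014 over 13 pairs in PMNs. Of the libraries, 3 of 11 in TECs and 6 of 10 in PMNs correlated best with their own number. Deviations within such small groups are tied to each other, so these correlations cannot show whether the numbers pair the libraries. A fit to the compared groups alone equals the fit used for averages over groups within TECs or within PMNs, and for the interaction. DESeq2 with apeglm was not run for any average over groups. A filter of 10 counts in every library left no value for Krt8 against PMNs.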

Other observations

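Markers of further cell types were also compared between IRI and sham TECs, as values without an explanation. The 7 fibroblast markers summed to 0 to 9.13 CPM in sham TECs and 12.0 to 41.5 CPM after IRI, all 7 with log2 fold changes above 0 (median 5.35). The 8 endothelium markers summed to 5.98 to 82.3 CPM and 6.42 to 309 CPM (median log2 fold change 1.21). The 6 erythrocyte markers summed to 4.40 to 726 CPM and 72.8 to 832 CPM (median of the 4 tested 3.35). edgeR called 0 genes of these 3 lists, where it called 1.4% of all genes, and 4, 3 and 4 of the listed genes had an unadjusted p under 0.05. The 7 lymphocyte markers summed to 3.17 to 32.3 CPM over all TEC libraries and the 6 platelet markers to 0 to 21.5 CPM, with 0 called by edgeR and 0 at an unadjusted p under 0.05. Pf4, a platelet gene, was called lower in TECs than in PMNs after sham surgery (adjusted p = 0.00313).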
